A study of Danio rerio with 6 samples.

Results

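The genes described here build the ribosome or transcribe DNA into RNA, and they were chosen by their symbols. The series measured 11304 named genes, of which 73 had a symbol that begins with utp, nop, nol, rrp, rrs1, imp3, imp4, mphosph10, wdr12, wdr43, wdr75, bop1, dkc1, nhp2, gar1, nip7, gnl3, tsr or polr, or that is exactly fbl or pes. Of these, 46 encode ribosome assembly factors, 24 are RNA polymerase subunits by symbol, and 3 carry a prefix without belonging to the roles used here. Each of the 73 was measured by 1 probe set with 1 gene symbol, and 3 further probe sets with such a symbol were left out because they carry several symbols. The symbols alone picked the genes, but the topic was proposed with the differences between the groups known. All values of that comparison are therefore given as a description of these arrays.

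Embryos had been injected at the stage of 1 cell with setb MO1, a morpholino against setb, or with a control morpholino (control MO). Total RNA was extracted at 48 h after fertilization and hybridised to 3 arrays in each group. A morpholino is an antisense oligonucleotide that blocks translation or splicing of the transcript it binds, and setb is a zebrafish counterpart of the human gene SET, whose product binds histones. The labels name 1 morpholino per group and whole embryos scored as normal-like, mild or moderate, without saying which class entered which sample, how many embryos were pooled, or whether replicates came from separate clutches. The spread between replicates may thus be technical.

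Ribosomes are assembled in the nucleolus. RNA polymerase I transcribes the long precursor of most ribosomal RNA, polymerase III makes the 5S ribosomal RNA and the transfer RNAs, and polymerase II makes messenger RNAs, including those for ribosomal proteins and assembly factors. Small nucleolar particles modify the precursor, the small subunit processome folds and cuts it around the U3 RNA, and further factors assemble the large subunit. In zebrafish embryos, loss of assembly factors is known to impair growing organs such as the gut, the eye and the liver.

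Expression is given as log2 intensity as the authors deposited it. A difference is the log2 level in setb MO1 minus that in control embryos. The value after ± is its standard error from the limma fit to 3 arrays in each group. That fit draws the variance of each probe set toward a value shared by all probe sets. A gene is said to have risen or fallen where limma, fitted to all probe sets, gave an adjusted p under 0.05 over all genes. In a whole embryo, fewer cells of a type and less RNA per cell cannot be told apart. Levels of different probe sets were not compared with each other. The transcript of setb was slightly higher in the setb MO1 arrays (0.19 ± 0.07), which does not check the labels, since a morpholino need not lower its target's transcript. Markers of muscle, epidermis, blood, neurons, lens, heart and hatching gland were measured (19 of 21 markers). Those of liver, fabp10a and tfa, were looked for but were not among the genes measured. Of the 19, 5 rose (26.3%, near the 23.9% of all genes) and 10 fell (52.6%, against 20.8% of all genes). Their mean level was 11.0 to 11.1 on the setb MO1 arrays and 11.3 on each control array. The lens gene cryaa changed by −1.46 ± 0.15 and the neuronal gene elavl3 by −0.49 ± 0.06. The hatching gland gene he1.1 changed by 1.03 ± 0.07. The part of such shifts between tissues in the results that follow was not tested.

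Of the 73 genes, 55 rose in setb MO1 embryos, 3 fell and 15 did not pass. Among all genes tested, 23.9% rose and 20.8% fell. The median difference of the 73 genes was 0.48, or 1.39-fold, and that of all genes was 0.023. At least 1.5-fold higher levels were found for 30 of the 73 genes, and for 6.36% of all genes. At least 1.5-fold lower levels were found for nol4la alone of the 73 genes, and for 7.14% of all genes. At least 2-fold higher levels were found for rrp8 and nip7, and for 1.11% of all genes. All 3 setb MO1 arrays lay above all 3 control arrays for 58 of the 73 genes, and for 30.6% of all genes. The reverse order was found for 3 of them, nol4la, nol4lb and polr3glb, and for 27.4% of all genes. Most increases were thus below 2-fold, with the arrays of a group close together. Every probe set of the table reached 8.45 on at least 1 array. Of the 73 genes, nol8, nop9, polr1b, polr1c, polr1g, polr2g, polr3f and utp4 reached it on setb MO1 arrays alone. Only on control arrays was it reached by polr2l and polr3glb. The case of polr3glb is close, as its setb MO1 replicate 2 was also at 8.45 when rounded. These 10 are thus counted as in the table through the group where they are high. Over all genes, 4.90% reached 8.45 on setb MO1 arrays alone and 5.75% on control arrays alone. Of the other 63 genes, 49 rose and 2 fell, against 22.7% risen of all genes that reached 8.45 in both groups. Without any single array, the number of genes that rose was 53 to 59 and the number that fell was 2 or 3.

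**Figure D1:**
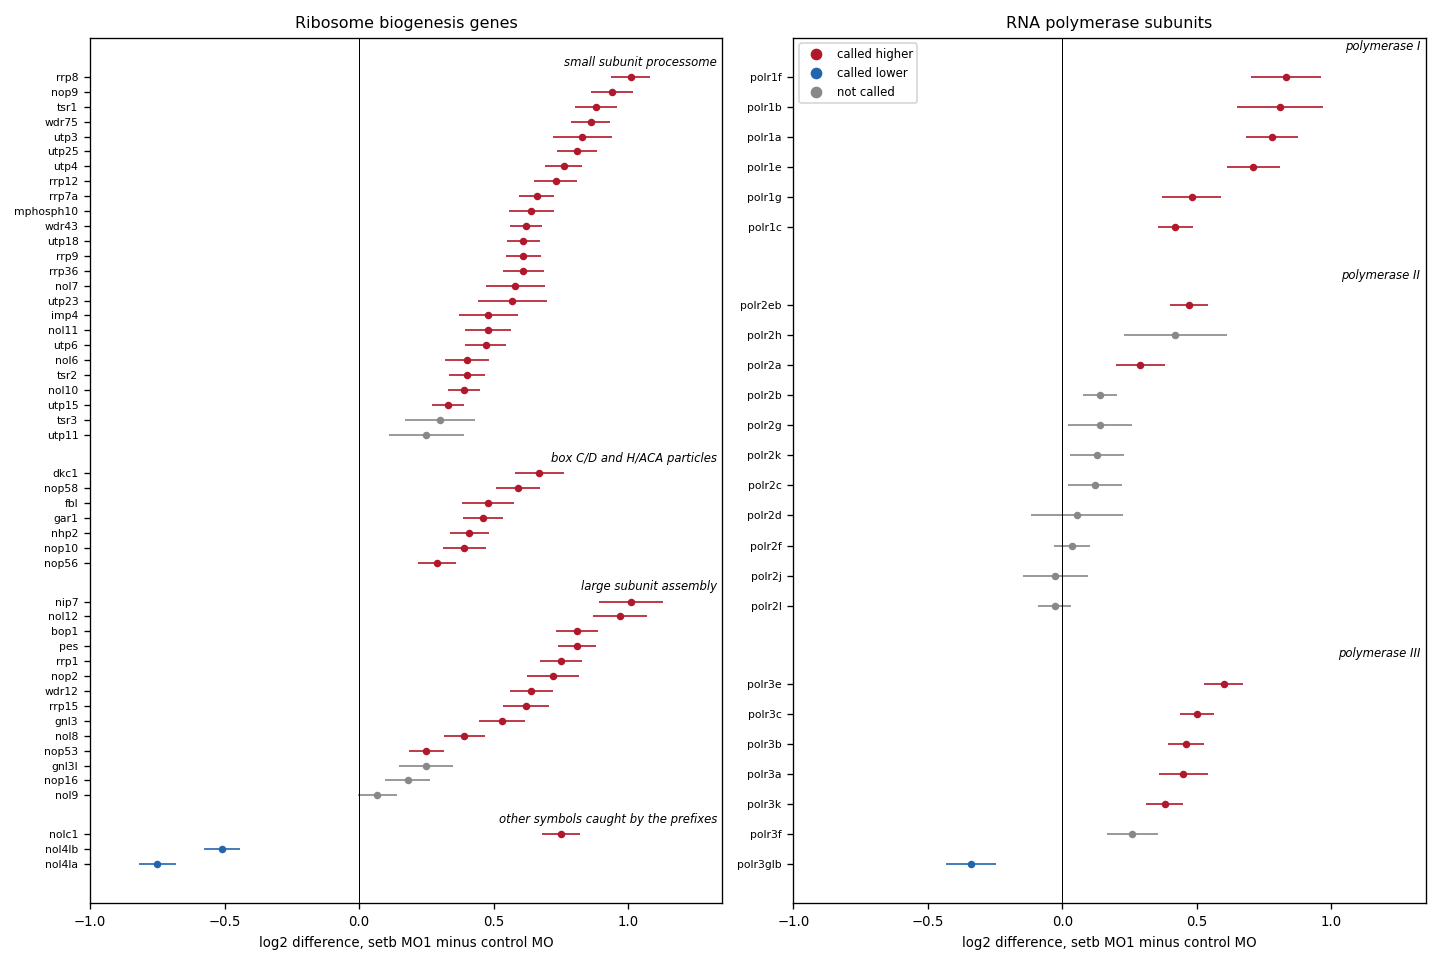
Log2 difference of each of the 73 genes (setb MO1 minus control MO, horizontal axis), grouped by role. Bars are 1 standard error from the limma fit (3 arrays in each group). Red points passed the test as higher, blue points as lower and grey points did not pass; nearly all assembly factors and polymerase I subunits lie between 0.25 and 1.01, while most polymerase II subunits lie close to 0.

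The rise was shared by the arrays. Taken as the mean over the 73 genes relative to their control mean, setb MO1 replicates 1, 2 and 3 stood at 0.47, 0.48 and 0.46, against 0.077, −0.0095 and −0.067 for control replicates 1, 2 and 3. The 3 setb MO1 arrays were nearly level, and the control arrays differed more. Control replicate 3 was the lowest control array for 41 of the 73 genes, and for 38.5% of all genes. Control replicate 1 was the highest for 45 of them, and for 46.4% of all genes. The same mean over all genes tested was between 0.0035 and 0.012 on the setb MO1 arrays and between −0.0067 and 0.012 on the control arrays.

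**Figure D2:**
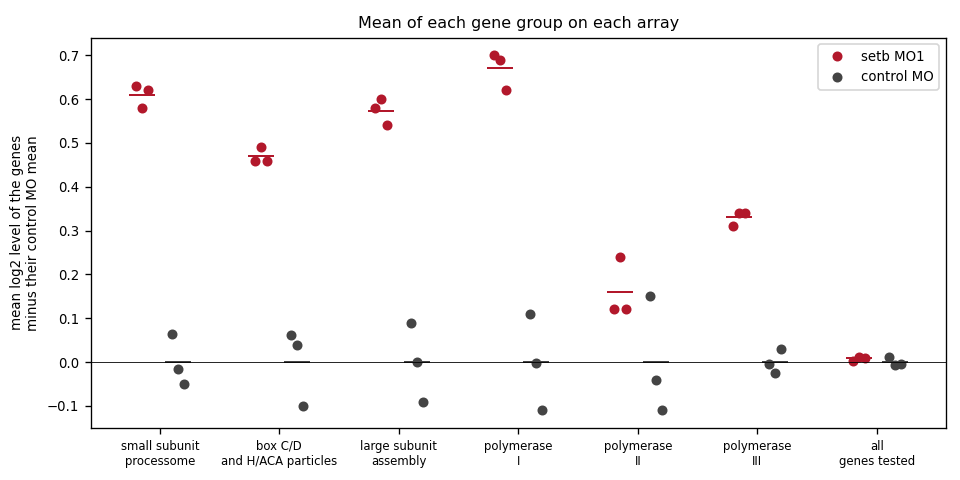
Mean log2 level of the genes of each role on each array, minus the control MO mean of the same genes (vertical axis); each point is 1 array, with setb MO1 left of control MO, and lines are group means. The setb MO1 arrays lie above every control array in each role except polymerase II, where control replicate 1 at 0.15 lies above 2 setb MO1 arrays, and the mean over all genes tested stays near 0.

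Genes of the small subunit processome and of later small subunit maturation rose almost throughout. Of 25, 23 rose (92.0%, against 23.9% of all genes), none fell (against 20.8%), and tsr3 and utp11 did not pass. The median difference was 0.61 and the range was 0.25 to 1.01. The gene rrp8, whose yeast counterpart methylates ribosomal RNA of the large subunit although it is grouped here, had levels of 10.37, 10.36 and 10.42 in setb MO1 embryos, against 9.43, 9.45 and 9.25 in control embryos. Its difference of 1.01 ± 0.07 was 2.01-fold, and the groups were 0.92 apart at their nearest arrays. The gene wdr75, a subunit of the complex that binds the nascent precursor, was at 11.05, 11.09 and 11.01 in setb MO1 embryos and 10.27, 10.22 and 10.08 in control embryos, a difference of 0.86 ± 0.07. The gene nop9, an RNA-binding factor of the small subunit in yeast, was at 8.82, 8.72 and 8.58 in setb MO1 embryos and 7.75, 7.72 and 7.83 in control embryos (0.94 ± 0.08). The gene tsr1, which acts on late cytoplasmic precursors of the small subunit, was at 9.88, 9.74 and 9.99 in setb MO1 embryos and 8.95, 8.98 and 9.03 in control embryos (0.88 ± 0.08). In all 4 the groups were well apart and the arrays of a group close together. Naming the genes with the smallest p of the role favours this pattern, and nop9 is in the table through its setb MO1 arrays.

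The genes of the processome can be followed by subcomplex, a grouping made after the values were seen. The complex known in yeast as UtpA, or t-Utp, binds the precursor first and is also needed for its transcription. Its members among the 73 genes, utp4 (0.76 ± 0.07), utp15 (0.33 ± 0.06), nol11 (0.48 ± 0.09), wdr43 (0.62 ± 0.06) and wdr75, all rose. Of these, utp4 is in the table through its setb MO1 arrays alone, and the other 4 reached its level in both groups. In the UtpB complex, utp18 rose by 0.61 ± 0.06 and utp6 by 0.47 ± 0.08. Of the factors around the U3 particle, rrp9, a protein of that particle, rose by 0.61 ± 0.07, and mphosph10 and imp4, which form a complex that helps U3 pair with the precursor, rose by 0.64 ± 0.08 and 0.48 ± 0.11. The gene utp3, known in yeast as Sas10, rose by 0.83 ± 0.11. The nucleolar factor gene utp25, called def in zebrafish and known from the growth of the digestive organs, was at 9.92, 9.77 and 9.99 in setb MO1 embryos and 9.09, 9.07 and 9.09 in control embryos (0.81 ± 0.07).

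Other members of the group rose within the same range. The gene rrp7a rose by 0.66 ± 0.06 and its partner in yeast, nol6, by 0.40 ± 0.08. The gene rrp12, known in yeast for the export of both subunits, rose by 0.73 ± 0.08. Also higher were rrp36 (0.61 ± 0.08), nol7 (0.58 ± 0.11), utp23 (0.57 ± 0.13), nol10 (0.39 ± 0.06) and tsr2 (0.40 ± 0.07), the last a chaperone of a small subunit protein in yeast. The least clear value was that of utp11, at 9.83, 9.79 and 9.63 in setb MO1 embryos and 9.80, 9.48 and 9.23 in control embryos, a difference of 0.25 ± 0.14. Its groups overlapped through control replicate 1, and without that array it passed at 0.40. For tsr3, an enzyme that modifies the small subunit RNA, the groups also overlapped (0.30 ± 0.13).

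The box C/D and box H/ACA particles guide methylation and pseudouridylation of ribosomal RNA. Among the 73 genes, 7 encode core proteins of these particles and all 7 rose, against 23.9% of all genes. Their median was 0.46 and their range 0.29 to 0.67. The box C/D gene nop58 was at 11.13, 11.15 and 11.12 in setb MO1 embryos and 10.61, 10.63 and 10.38 in control embryos (0.59 ± 0.08). The methyltransferase gene fbl, fibrillarin, was at 11.83, 11.95 and 11.97 in setb MO1 embryos and 11.58, 11.49 and 11.25 in control embryos (0.48 ± 0.10). Every setb MO1 array was above every control array for both. The remaining box C/D gene, nop56, had the smallest difference of the 7, at 10.90, 10.80 and 10.88 in setb MO1 embryos and 10.59, 10.64 and 10.47 in control embryos (0.29 ± 0.07). The pseudouridine synthase gene dkc1, dyskerin, was at 11.05, 10.96 and 10.93 in setb MO1 embryos and 10.48, 10.31 and 10.15 in control embryos (0.67 ± 0.09). Genes of both kinds of particle were thus higher. The partner gene gar1 was at 9.29, 9.20 and 9.19 in setb MO1 embryos and 8.70, 8.89 and 8.72 in control embryos (0.46 ± 0.08). The partner gene nhp2 was at 10.33, 10.49 and 10.30 in setb MO1 embryos and 9.96, 10.00 and 9.92 in control embryos (0.41 ± 0.07). For nop10, the smallest protein of the particle, the difference was 0.39 ± 0.08, and the groups did not overlap for any of the 3.

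Of 14 genes of large subunit assembly, 11 rose, none fell and 3 did not pass, with a median of 0.63. Thus 78.6% rose, against 23.9% of all genes, of which 20.8% fell. The 3 genes of the PeBoW complex, which is needed to process the precursor of the large subunit RNAs, all rose. The gene pes, pescadillo, first known from a zebrafish mutant, was at 9.31, 9.23 and 9.15 in setb MO1 embryos and 8.39, 8.48 and 8.39 in control embryos (0.81 ± 0.07). Its partner bop1 was at 10.67, 10.76 and 10.83 in setb MO1 embryos and 9.87, 9.90 and 10.05 in control embryos (0.81 ± 0.08). The other partner, wdr12, differed by 0.64 ± 0.08. On all arrays the PeBoW genes of the setb MO1 group stood above those of the control group.

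The largest difference among the genes of the large subunit was that of nip7, a factor of precursor processing, at 9.51, 9.62 and 9.55 in setb MO1 embryos and 8.81, 8.53 and 8.31 in control embryos (1.01 ± 0.12, 2.02-fold). The gene nol12 was at 10.02, 9.80 and 9.71 in setb MO1 embryos and 8.98, 8.76 and 8.88 in control embryos (0.97 ± 0.10), and rrp1 was at 11.29, 11.38 and 11.22 in setb MO1 embryos and 10.65, 10.47 and 10.52 in control embryos (0.75 ± 0.08). The RNA methyltransferase gene nop2 differed by 0.72 ± 0.10, rrp15 by 0.62 ± 0.09 and gnl3, nucleostemin, a nucleolar GTPase of dividing and stem cells, by 0.53 ± 0.09. Smaller increases were those of nol8 (0.39 ± 0.08), which is in the table through its setb MO1 arrays, and nop53 (0.25 ± 0.06). The call on nop53 was lost when control replicate 2 (0.23) or setb MO1 replicate 2 (0.22) was left out.

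Not all factors moved. The kinase gene nol9, which acts on the spacer RNA between the large subunit RNAs, was at 9.98, 9.99 and 9.95 in setb MO1 embryos and 10.03, 9.84 and 9.84 in control embryos, a difference of 0.067 ± 0.073. All its setb MO1 values lay within the control range. The genes nop16 (0.18 ± 0.08) and gnl3l (0.25 ± 0.10), the latter a relative of gnl3, did not pass. Without control replicate 1, gnl3l passed at 0.33.

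The 3 genes that share a prefix without a listed role went in different directions. The gene nolc1, whose product is a chaperone of small nucleolar particles, rose and was at 11.08, 11.07 and 11.21 in setb MO1 embryos and 10.45, 10.36 and 10.31 in control embryos (0.75 ± 0.07). The paralogs nol4la and nol4lb, named after a nucleolar protein and not established as assembly factors, both fell. The gene nol4la was at 8.57, 8.44 and 8.60 in setb MO1 embryos and 9.25, 9.30 and 9.31 in control embryos (−0.75 ± 0.07). The gene nol4lb was at 9.22, 9.16 and 9.34 in setb MO1 embryos and 9.76, 9.76 and 9.74 in control embryos (−0.51 ± 0.07). Apart from polr3glb, they were the only genes of the 73 that fell.

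All 6 genes named for polymerase I rose, with a median of 0.75 and a range of 0.42 to 0.83. Among all genes, 23.9% rose. Of the 6, polr1b, polr1c and polr1g reached 8.45 on setb MO1 arrays alone and had to be high there to be in the table. The genes polr1a, polr1e and polr1f reached 8.45 in both groups. The largest subunit gene, polr1a, was at 10.07, 9.95 and 10.14 in setb MO1 embryos and 9.11, 9.28 and 9.43 in control embryos (0.78 ± 0.10). The second largest, polr1b, which forms the active site with it, was at 8.70, 8.63 and 8.61 in setb MO1 embryos and 8.10, 7.98 and 7.45 in control embryos (0.81 ± 0.16). The groups were apart for both catalytic subunits.

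The subunits outside the catalytic core showed the same direction, but polr1c and polr1g are in the table through their setb MO1 arrays alone. The stalk subunit gene polr1f was at 9.78, 9.84 and 9.55 in setb MO1 embryos and 9.16, 8.81 and 8.72 in control embryos (0.83 ± 0.13). The genes polr1e and polr1g encode a heterodimer that is found on polymerase I and helps it initiate. The levels of polr1e were 9.72, 9.72 and 9.49 in setb MO1 embryos and 9.04, 9.00 and 8.75 in control embryos (0.71 ± 0.10). The levels of polr1g were 8.56, 8.76 and 8.65 in setb MO1 embryos and 8.39, 8.04 and 8.12 in control embryos (0.48 ± 0.11). The gene polr1c, whose product is shared by polymerases I and III, was at 8.93, 8.78 and 8.84 in setb MO1 embryos and 8.44, 8.44 and 8.43 in control embryos (0.42 ± 0.07), the smallest difference of the 6. Control replicate 3 was the lowest control array for polr1b, polr1c, polr1e and polr1f, and without it the median of the polymerase I genes was 0.62.

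**Figure D3:**
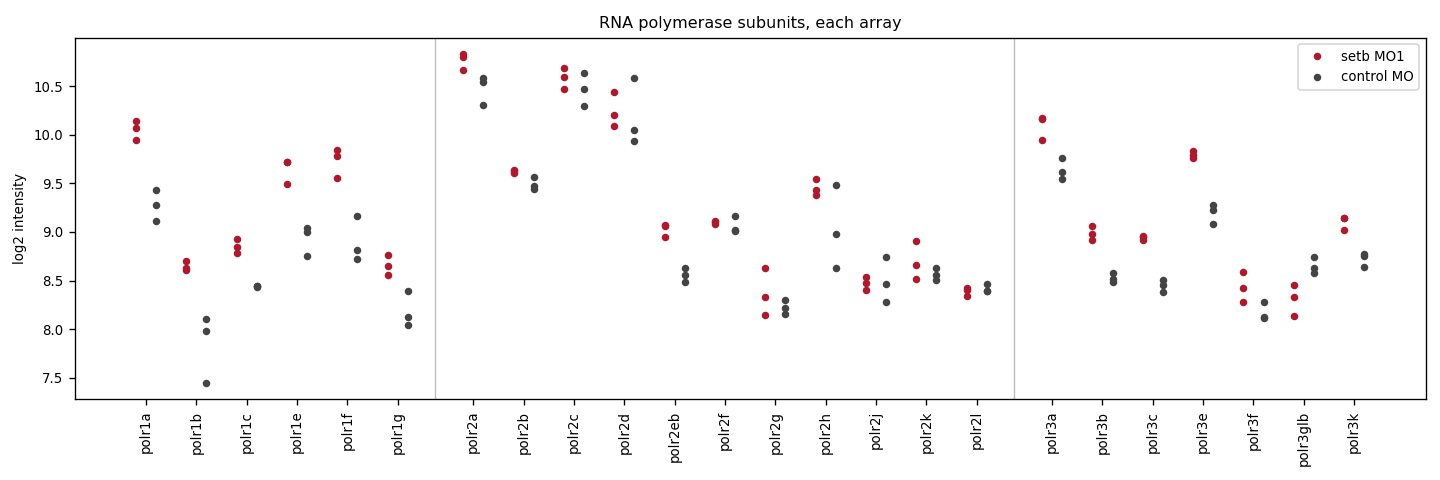
Log2 intensity of the 24 polymerase subunit genes (vertical axis), 1 point for each array, setb MO1 in red left of control MO in grey; vertical lines part the genes named for polymerases I, II and III. The groups are apart for all 6 polymerase I genes, of which polr1b, polr1c and polr1g reached 8.45 on setb MO1 arrays alone. They overlap for 8 of the 11 polymerase II genes. The gene polr3glb, which counts as reaching 8.45 on control arrays alone (setb MO1 replicate 2 rounds to 8.45), is lower in setb MO1. Of all genes, 30.6% had every setb MO1 array above every control array and 27.4% had the reverse.

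Of 11 genes named for polymerase II, 2 rose, none fell and 9 did not pass, with a median of 0.13 and a range of −0.029 to 0.47. The share that rose was 18.2%, near the 23.9% of all genes, of which 20.8% fell. Without setb MO1 replicate 2 the median was 0.045. The largest subunit gene, polr2a, was at 10.80, 10.67 and 10.83 in setb MO1 embryos and 10.58, 10.54 and 10.31 in control embryos (0.29 ± 0.09). Its call was lost when control replicate 2 (0.32) or 3 (0.21), or setb MO1 replicate 1 (0.27) or 3 (0.26), was left out. The second largest, polr2b, was at 9.61, 9.64 and 9.63 in setb MO1 embryos and 9.56, 9.47 and 9.44 in control embryos (0.14 ± 0.06) and did not pass, although its groups did not overlap. The genes of the pair on which the enzyme assembles, polr2c (0.12 ± 0.10) and polr2j (−0.026 ± 0.12), did not pass. Nor did those of the stalk, polr2d (0.054 ± 0.17) and polr2g (0.14 ± 0.12). The values of polr2j were 8.47, 8.54 and 8.40 in setb MO1 embryos and 8.74, 8.46 and 8.28 in control embryos, with the setb MO1 arrays inside the control range.

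Of these 11 genes, 5 encode subunits that all 3 polymerases use. The gene polr2eb was the one of the 5 that rose, at 8.95, 9.06 and 9.07 in setb MO1 embryos and 8.63, 8.56 and 8.48 in control embryos (0.47 ± 0.07). The gene polr2h was at 9.38, 9.54 and 9.43 in setb MO1 embryos and 9.48, 8.98 and 8.63 in control embryos (0.42 ± 0.19). Control replicate 1 lay within its setb MO1 range, and without that array polr2h passed at 0.64. The remaining shared genes, polr2f (0.034 ± 0.067), polr2k (0.13 ± 0.10) and polr2l (−0.029 ± 0.061), did not pass. Among the 6 that are used by polymerase II alone, polr2a rose.

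Of 7 genes named for polymerase III, 5 rose, 1 fell and 1 did not pass, with a median of 0.45. Thus 71.4% rose and 14.3% fell, against 23.9% and 20.8% of all genes. The catalytic subunit genes polr3a and polr3b were both higher. The levels of polr3a were 10.17, 9.95 and 10.16 in setb MO1 embryos and 9.54, 9.62 and 9.76 in control embryos (0.45 ± 0.09). Those of polr3b were 8.98, 8.92 and 9.06 in setb MO1 embryos and 8.49, 8.52 and 8.58 in control embryos (0.46 ± 0.07). The gene polr3e, a subunit that aids initiation and termination, was at 9.79, 9.76 and 9.83 in setb MO1 embryos and 9.28, 9.08 and 9.23 in control embryos (0.60 ± 0.07). The gene polr3k, whose product works in RNA cleavage, was at 9.02, 9.14 and 9.14 in setb MO1 embryos and 8.64, 8.77 and 8.75 in control embryos (0.38 ± 0.07). In all 4 every setb MO1 array lay above every control array, as it did for 30.6% of all genes.

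The products of polr3c, polr3f and polr3glb belong to a trimer that opens the promoter, the last being a version of its remaining subunit. The gene polr3c was at 8.95, 8.92 and 8.96 in setb MO1 embryos and 8.51, 8.45 and 8.38 in control embryos (0.50 ± 0.06). The gene polr3f was at 8.28, 8.59 and 8.42 in setb MO1 embryos and 8.28, 8.11 and 8.13 in control embryos (0.26 ± 0.10) and did not pass, with setb MO1 replicate 1 level with control replicate 1. The gene polr3glb was lower, at 8.33, 8.45 and 8.14 in setb MO1 embryos and 8.58, 8.63 and 8.74 in control embryos (−0.34 ± 0.09). Its probe set counts as reaching 8.45 on control arrays alone, although setb MO1 replicate 2 was also at 8.45 when rounded. That of polr3f reached 8.45 on setb MO1 arrays alone. Of the other 5 polymerase III genes, 5 rose. The groups of polr3glb did not overlap, so leaving out any single array could not change its direction. Its call was lost when control replicate 2 (−0.35) or 3 (−0.30), or setb MO1 replicate 1 (−0.36) or 3 (−0.26), was left out. Differences between the 3 polymerases were not tested against each other.

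Genes of the same pathway without these prefixes were read from lists drawn up from general knowledge, with earlier results of these data known. Counts cover the listed genes that were measured. Of 42 further factors of the small subunit, 34 were measured. Of these, 33 rose (97.1%, against 23.9% of all genes), none fell (against 20.8%) and ddx21 (0.21 ± 0.07) did not pass. The median of the 34 was 0.52. Among those that rose, ddx10 and ngdn are in the table through their setb MO1 arrays alone, and of the 32 others 31 rose. The list includes rrn3, a factor of polymerase I. The acetyltransferase gene nat10 was at 10.07, 10.12 and 10.13 in setb MO1 embryos and 9.42, 9.37 and 9.29 in control embryos (0.75 ± 0.06). The gene wdr36, of the UtpB complex, differed by 0.74 ± 0.07 and esf1 by 0.85 ± 0.08. The nucleolin gene ncl rose by 0.18 ± 0.06 and was picked after the values were known.

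Of 59 further factors of the large subunit, 47 were measured, with a median of 0.50. Of these, 39 rose (83.0%, against 23.9% of all genes), 3 fell (6.38%, against 20.8%) and 5 did not pass. The helicase gene ddx24 (0.77 ± 0.06) and the genes sdad1 (0.80 ± 0.06) and noc3l (0.83 ± 0.07) had the smallest p-values. Those that fell, picked with their values known, were the protease gene senp3a (−0.38 ± 0.07), rsl24d1 (−0.23 ± 0.06), whose product joins the large subunit before it leaves the nucleus, and npm1b (−0.24 ± 0.07), a nucleophosmin gene. Its paralog npm1a rose by 0.50 ± 0.08. The gene senp3a is in the table through its control arrays alone. The genes ddx31 and wdr55, which rose, are in it through their setb MO1 arrays alone. Of the 44 others, 37 rose and 2 fell. The nuclear exosome trims precursor RNAs, and of 16 genes on its list 11 were measured, with a median of 0.42. Of these, 8 rose (72.7%, against 23.9% of all genes), none fell (against 20.8%) and 3 did not pass. Examples were the nuclease gene exosc10 (0.63 ± 0.06), exosc2 (0.60 ± 0.07) and the nuclease gene dis3 (0.45 ± 0.06). One that rose, exosc7, is in the table through its setb MO1 arrays alone, and of the 10 others 7 rose.

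Ribosomal protein genes did not share the rise. Of 63 genes of cytosolic ribosomal proteins, none rose, 10 fell and 53 did not pass, with a median of −0.056 and a range of −0.45 to 0.16. The share that fell was 15.9%, below the 20.8% of all genes, and 23.9% of all genes rose. The gene rps9 was at 9.47, 9.58 and 9.69 in setb MO1 embryos and 10.04, 10.05 and 10.00 in control embryos (−0.45 ± 0.07). The genes rps20 and rpl34 changed by −0.42 ± 0.07 and −0.36 ± 0.06. For rps9, which had the smallest p of the list, every setb MO1 array lay below every control array. That order was found for 22 of the 63 and the reverse for 3, against 27.4% and 30.6% of all genes.

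**Figure D4:**
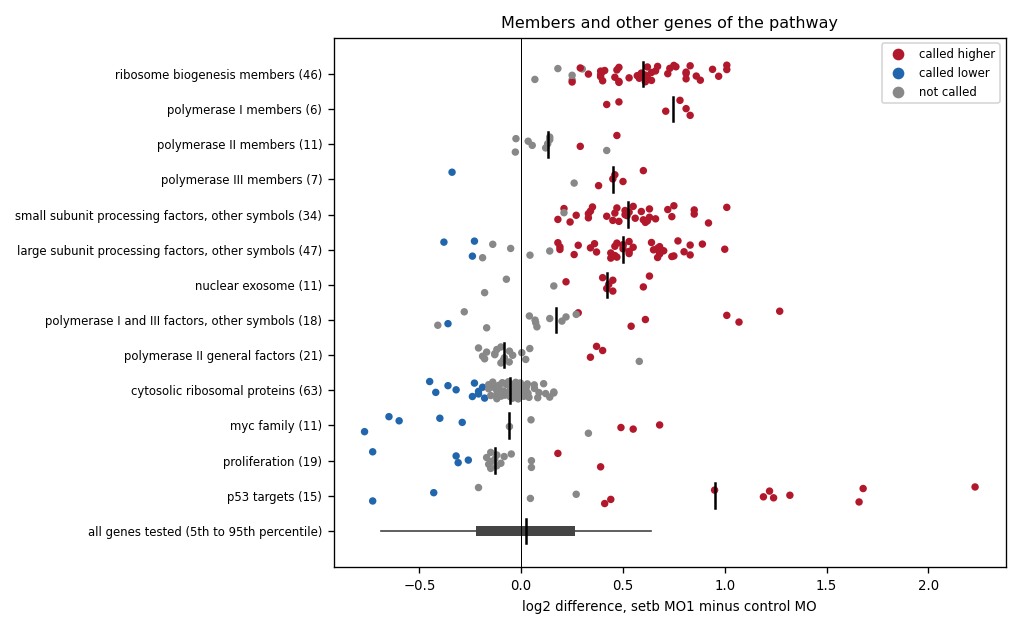
Log2 differences (setb MO1 minus control MO, horizontal axis) of the genes described and of the other genes of the pathway, 1 point for each gene with the number of genes in parentheses; black ticks are medians, red and blue points passed as higher and lower, and the bottom row gives the 25th to 75th (thick) and 5th to 95th (thin) percentiles of all genes tested. Most assembly factors with and without a listed prefix lie to the right of 0, with 6 of the 47 large subunit factors without a prefix to its left, and ribosomal protein genes and polymerase II general factors lie around 0.

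Factors of polymerases I and III without the prefix were mixed. Most are promoter factors, but the list also holds the polymerase III subunit gene crcp. Its gene rrn3 was also counted among the further factors of the small subunit. Of 32 genes listed, 18 were measured, of which 6 rose, 1 fell and 11 did not pass, with a median of 0.17. The shares were 33.3% risen and 5.56% fallen, against 23.9% and 20.8% of all genes. The gene that fell, snapc5, reached 8.45 on control arrays alone. Without snapc5 and brf1a, which reached 8.45 in 1 group alone, 5 of 16 rose and 0 fell. The gene taf1c, of the selectivity factor of polymerase I, was at 11.15, 11.19 and 11.11 in setb MO1 embryos and 9.84, 9.82 and 9.96 in control embryos (1.27 ± 0.07, 2.42-fold), a larger difference than for any of the 73 genes. The gene rrn3, whose product links polymerase I to that factor, was at 10.61, 10.71 and 10.87 in setb MO1 embryos and 9.91, 9.66 and 9.58 in control embryos (1.01 ± 0.11). For polymerase III, brf1a, of its initiation factor, was at 8.41, 8.51 and 8.46 in setb MO1 embryos and 7.26, 7.52 and 7.37 in control embryos (1.07 ± 0.08). In all 3 the groups were far apart, which naming the genes with the smallest p of the list favours. Of these, brf1a reached 8.45 on setb MO1 arrays alone and so is in the table through the group where it is high. The gene ubtf, of the factor that binds ribosomal DNA along the polymerase I gene, did not pass (−0.28 ± 0.19, named after its value was seen). The same was true of crcp, a stalk subunit of polymerase III without the prefix (0.04 ± 0.06, also named afterwards).

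Of 21 measured polymerase II general factors (27 listed), 3 rose (14.3%, against 23.9% of all genes). None fell, against 20.8% of all genes, and 18 did not pass, with a median of −0.083. Those that rose were tbp (0.37 ± 0.08), which all 3 polymerases use, rpap3 (0.34 ± 0.09), which helps to assemble polymerases, and ctdp1 (0.40 ± 0.13), a phosphatase of polymerase II.

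The Myc proteins are known to raise the transcription of assembly factors and of polymerase I and III genes, and the Mxd proteins oppose them. Of 11 measured genes of this family (15 listed), 3 rose, 5 fell and 3 did not pass. The shares were 27.3% risen and 45.5% fallen, against 23.9% and 20.8% of all genes. The gene myca was at 8.85, 8.98 and 8.92 in setb MO1 embryos and 8.42, 8.42 and 8.43 in control embryos (0.49 ± 0.06), reaching 8.45 in setb MO1 alone, and mxd3 and mxi1 changed by −0.65 ± 0.08 and −0.60 ± 0.08. Named after their values were seen, mycn rose by 0.68 ± 0.11 and mycb by 0.55 ± 0.13, while mycla and myclb fell (−0.77 ± 0.10 and −0.40 ± 0.09). Of 19 measured proliferation genes (24 listed), 2 rose, 4 fell and 13 did not pass, with a median of −0.13. Thus 10.5% rose, against 23.9% of all genes, and 21.1% fell, near the 20.8% of all genes. All setb MO1 arrays lay below all control arrays for 10 of the 19, against 27.4% of all genes. The reverse order was found for 2, against 30.6%. The list's mean level was 10.7 on each setb MO1 array and 10.8 on each control array. The genes with the smallest p-values were ccne2 (−0.73 ± 0.08), rrm1 (−0.31 ± 0.06) and ccnb1 (−0.32 ± 0.07). The 2 that rose, named afterwards, were tyms (0.39 ± 0.12) and ccnd1 (0.18 ± 0.06).

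Of 15 measured p53 targets (19 listed), 10 rose, 2 fell and 3 did not pass, with a median of 0.95. The shares were 66.7% risen and 13.3% fallen, against 23.9% and 20.8% of all genes. The mean level of this list was 10.5 to 10.6 on the setb MO1 arrays and 9.73 to 9.91 on the control arrays. The genes cdkn1a (2.23 ± 0.09), mdm2 (1.24 ± 0.08) and phlda3 (1.22 ± 0.08) had the smallest p-values. Without phlda3 and bbc3, which reached 8.45 on setb MO1 arrays alone, 8 of 13 rose and the median was 0.44. Of all genes that reached 8.45 in both groups, 22.7% rose. Faulty ribosome assembly is known to stabilise p53, and morpholinos themselves are known to induce p53 targets. The part of the Myc family, of proliferation and of p53 in the values of the 73 genes was not tested.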

How the data were processed

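Total RNA of 6 zebrafish samples at 48 h after fertilization was measured on 6 Affymetrix arrays, 3 per group. The authors deposited log2 intensities, which the submitters' processing notes credit to RMA. Its software is not given in the labels. All 15726 probe sets reached 8.45 on at least 1 array, so that a gene low in both groups is not in the table. Array medians were 9.47 to 9.49. Having only 3 arrays per group limits precision.

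Of the probe sets, 11738 had 1 gene symbol in the platform annotation, 413 had several and 3575 had none. Symbols were compared without regard to case, and for each of the 11304 genes the probe set of highest mean was read. Differences were tested two-sided with limma 3.58.1 under R 4.3.3 (lmFit and eBayes over all probe sets), with Benjamini-Hochberg adjustment over genes at a threshold of 0.05. The fit was tested on simulated data.

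The genes and lists were chosen with earlier results of these data known. In each role, up to 4 genes with the smallest p and the gene with the largest p were to be given with all arrays, and 3 genes with the smallest p of each list. Values on every array for further genes of the 73, and the subcomplexes, were added after the values were seen. Lists of ribosome assembly, promoter factors, Myc, proliferation and p53 genes came from general knowledge. Replicate numbers were not used to pair the samples in the main fit. Deviations of same-numbered arrays from their group means correlated at 0.0686, −0.356 and 0.361 across genes, which are not independent replicates. These values cannot decide whether the samples were paired, since deviations from a mean of 3 arrays depend on each other.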

Additional observations from a re-analysis of the deposited data

How the results depend on the processing

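Under 14 alternatives, the direction of every one of the 73 genes held, where tested, except for polr2d and polr2j. Many of these alternatives could not change it. Other thresholds, another variance estimate, the replicate block, the choice of probe sets by level and the mean over probe sets leave each difference as it was. Leaving out 1 array cannot change a direction either where the groups did not overlap. The difference of polr2d was −0.07 without control replicate 2, −0.017 without control replicate 3 and −0.045 when setb MO1 replicate 2 was left out, in a range of −0.07 to 0.25. That of polr2j was 0.095 without control replicate 1 and 0.0083 when setb MO1 replicate 3 was left out, in a range of −0.13 to 0.095. Among probe sets above the median level, 38 of the 73 genes were tested, and fewer genes tested accounts for the lower counts: 32 rose and 1 fell, with 27 assembly factors risen, 4 polymerase subunit genes risen and 0 fallen, and over all genes 1491 risen and 1217 fallen. There the median of the 3 other prefix genes, with 2 left, was 0.12 in place of −0.51, and that of polymerase III genes 0.53. At a threshold of 0.01, 1586 genes rose and 1454 fell, and 0 polymerase subunit genes fell. With the replicate number as a block, 56 of the 73 genes rose and 3 fell: tsr3 and gnl3l gained a call and polr2a lost it. Without any single array, 12 to 15 polymerase subunit genes rose, 0 or 1 fell, 40 to 43 assembly factors rose, and the median ranged from 0.62 to 0.77 for polymerase I, from 0.045 to 0.17 for polymerase II and from 0.40 to 0.49 for polymerase III. Over all genes, 1833 to 2697 then rose and 1690 to 2317 fell. The cause of these changes was not tested.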
